A study of Mus musculus with 16 samples.

Results

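The genes described here are 10 adipokine genes and receptors: the hormone and cytokine genes *Adipoq*, *Lep*, *Retn*, *Nampt*, *Rarres2*, *Apln* and *Itln1*, the adiponectin receptor genes *Adipor1* and *Adipor2*, and the lysophosphatidic acid receptor gene *Lpar1*. They were chosen by symbol among the 54347 genes of the count table, of which 13150 were tested. Of the 10 genes, 8 passed the filter on low counts, while *Lep* and *Itln1* did not. The cells were wt1-SAM cells, 1 immortalized line of mouse brown preadipocytes with a stable CRISPRa SAM system, where a dead Cas9 and activators bound to the guide RNA raise transcription at the guide's target. All groups carried this system, were differentiated with rosiglitazone in the medium, received 250 ng of plasmid by reverse transfection on day 4 and were harvested on day 7. The plasmid was either the empty sgRNA vector (empty vector cells) or a mixture of vectors with guides 2 and 7 against the long noncoding RNA gene *Gm15551* (sgRNA cells), so that the control carried no guide rather than a guide without a target. Cells of each kind were left as control or stimulated with 1 µM of the β-adrenergic agonist isoproterenol for 24 h, which gave 4 groups with replicates 3, 4, 5 and 6 in each, 16 libraries of polyadenylated RNA in all. The labels do not say whether replicates came from separate cultures, so p-values measure the spread between these libraries only.

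Adipokines are proteins that fat cells secrete and that act on distant or neighbouring cells. Adiponectin, the product of *Adipoq*, is made almost only by mature adipocytes and acts through AdipoR1 and AdipoR2, whereas leptin (*Lep*) reports fat stores to the brain and is a product of white more than of brown fat. β-adrenergic agonists mimic the noradrenaline that sympathetic nerves release in the cold, and in adipocytes they raise cAMP, start lipolysis and induce the uncoupling protein gene *Ucp1*.

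The guide sequences are shown because they define the sgRNA groups. They are given 5′ to 3′ without the neighbouring PAM.
Gm15551-2: cacttccagttatataagcg
Gm15551-7: agggttttttgctaaaacgg
Guide 2 matched chr3:126669053-126669072 on the minus strand of GRCm38, just outside the annotated gene at chr3:126667329-126669044. Guide 7 was not located here. None of the 10 genes lies on chromosome 3.

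The sequences before the start sites of *Adipoq* and *Retn* are shown because these were the genes of the set that passed the test under isoproterenol. Each is the 250 bases before the RefSeq start (GRCm38.p6), both on the plus strand, with the letters of any motif searched in capitals.
Adipoq, chr16:23146286-23146535: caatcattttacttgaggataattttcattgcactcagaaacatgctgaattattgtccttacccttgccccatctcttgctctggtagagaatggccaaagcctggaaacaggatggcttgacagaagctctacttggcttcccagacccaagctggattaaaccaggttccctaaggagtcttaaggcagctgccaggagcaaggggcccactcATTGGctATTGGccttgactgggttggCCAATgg
Retn, chr8:3655520-3655769: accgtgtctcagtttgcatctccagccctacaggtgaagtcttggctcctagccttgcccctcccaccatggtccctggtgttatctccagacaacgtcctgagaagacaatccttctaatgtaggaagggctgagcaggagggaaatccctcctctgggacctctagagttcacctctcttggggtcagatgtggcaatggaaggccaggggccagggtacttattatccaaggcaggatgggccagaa
The motifs searched on both strands were the cAMP response element TGACGTCA and the part of it TGACG, the nuclear receptor motif AGGTCA, the C/EBP motif TTGCNNAA, the E-box CACGTG, the CCAAT box and the TATA box TATAAA, where the shorter cAMP motif is contained in the full element. In the *Adipoq* window only the CCAAT box was found, at 3 places between bases -34 and -3 relative to the start, and 33.8% of the 32851 RefSeq promoters searched held it as well. The *Retn* window held none of these letters. In all, 12 windows were searched for the 9 genes with a RefSeq promoter, as some genes have several RefSeq starts. The shorter motif TGACG, held by 17.8% of all promoters, occurred in a window of *Nampt*, of *Adipor1* and of *Adipor2*. Each of these windows lies before a RefSeq start but inside the gene as annotated here. The *Adipor1* window before the annotated gene held only the CCAAT box of these motifs. The full element, held by 1.55%, occurred in none of the windows.

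Total counts per library lay between 9053521 and 16546187. A single ribosomal RNA gene took 11.7% to 51.8% of them and a lower share in the sgRNA library in 8 of 8 pairs of the same treatment and replicate number. Levels are given as CPM, counts per library brought to a common total with TMM scaling factors. A count of 0 allowed up to 0.166 to 0.390 CPM, depending on the library, with a limit of 3 counts that covers counting error only. *Gm15551* averaged 0.952 CPM in empty vector and 2.97 CPM in sgRNA control cells, and 0.147 and 1.56 CPM in the stimulated groups. *Ucp1* averaged 0.350 CPM in empty vector control and 6.42 CPM in stimulated empty vector cells. That the cells were adipocytes was checked by 8 general adipocyte markers, among them *Fabp4*, *Plin1* and *Lpl*, which summed to between 12299.5 and 26521 CPM. These markers do not check the brown type. Of brown adipocyte genes, *Elovl3* and *Ppargc1a* averaged 235.6 and 37.9 CPM in empty vector control cells. In the same cells *Cidea*, *Prdm16* and *Cox8b* were low, at 1.61, 1.10 and 0.912 CPM.

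Among the 8 genes that were tested, *Adipoq* was by far the most abundant transcript per kilobase of exon. Its level over all 16 libraries was 420 ± 181 CPM per kb (SD, n = 16), followed by *Adipor2* at 86.6 ± 9.17 and *Nampt* at 39.1 ± 7.93 CPM per kb. *Retn* reached 35.1 ± 9.36, *Adipor1* 17.2 ± 1.46, *Rarres2* 12.6 ± 4.98, *Apln* 8.82 ± 3.16 and *Lpar1* 0.627 ± 0.362 CPM per kb. *Adipoq*, *Adipor2*, *Retn* and *Apln* each stood above the next gene of this order in 16 of 16 libraries. *Nampt* was above *Retn* in 12, *Adipor1* above *Rarres2* in 14 and *Rarres2* above *Apln* in 15 of 16 libraries, and the levels of these neighbours overlapped within 1 SD.

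The other 2 genes were at or near the counting limit. *Lep* (ENSMUSG00000059201.12, chr6:29060220-29073877) had 1 count in 16 libraries, in stimulated sgRNA replicate 6. *Itln1* (ENSMUSG00000038209.12, chr1:171518122-171535294), which encodes the lectin omentin, had 18 counts in 10 libraries and at most 3 in any. Both were at or under the limit of 3 counts in every library, so no difference was detectable at this depth. The receptor genes of several ligands were also below the filter, with at most 6 counts in any library: leptin's *Lepr* had 12 counts in all libraries together, apelin's *Aplnr* 4, chemerin's *Cmklr1*, *Gpr1* and *Ccrl2* 3, 9 and 25, and T-cadherin (*Cdh13*), which binds adiponectin, 10. Of the family of *Retn* and *Itln1*, *Retnla* had 1 count and *Retnlb* and *Retnlg* had 0.

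**Figure D1:**
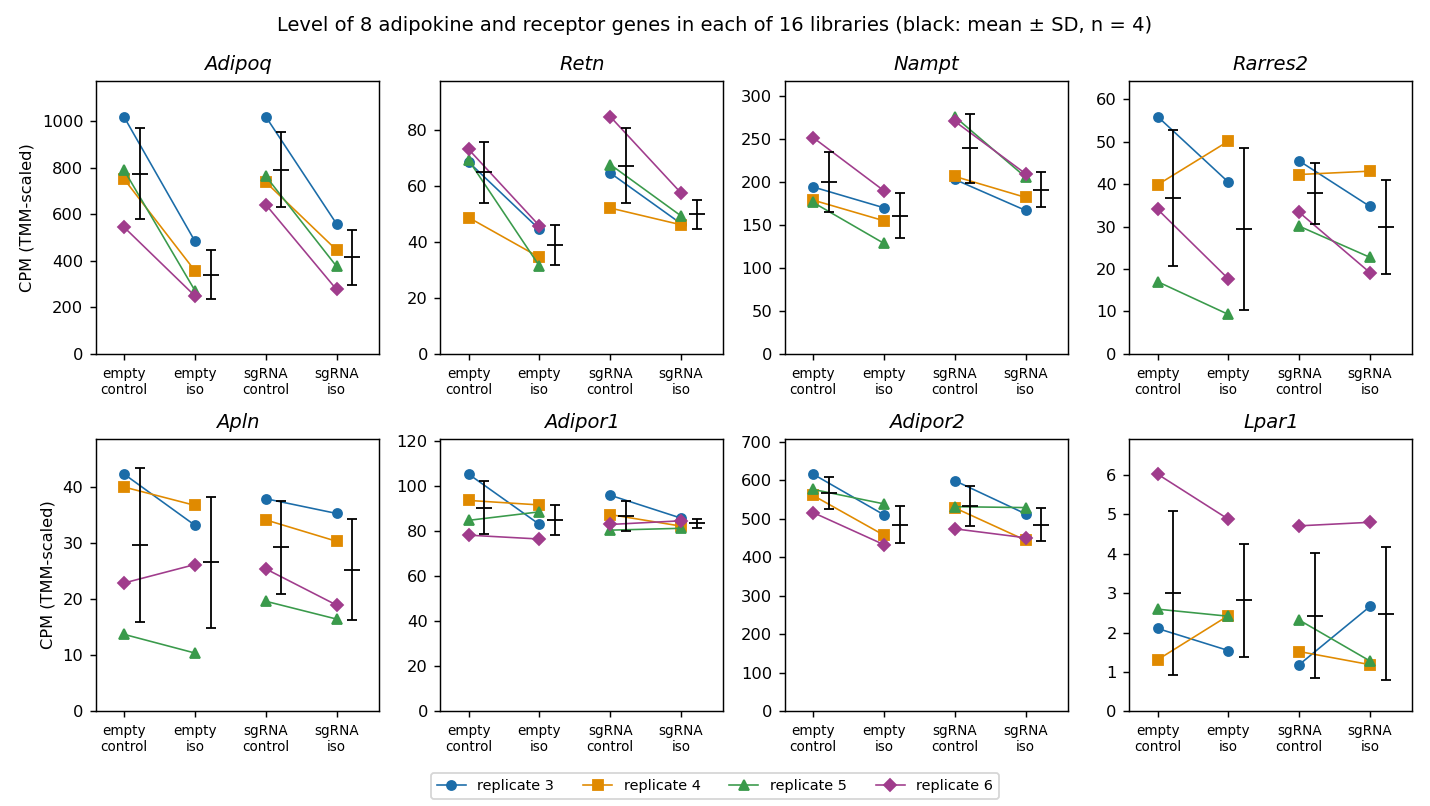
Levels in CPM, scaled by TMM (vertical axes from 0), of the 8 tested genes in each of 16 libraries by group, where lines join the control and stimulated library of the same plasmid and replicate number and black bars give the mean ± SD (n = 4). All 8 lines fall for *Adipoq*, *Retn*, *Nampt* and *Adipor2*, whereas for *Apln* replicates 3 and 4 lie above replicates 5 and 6 and for *Lpar1* replicate 6 lies above the others.

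Isoproterenol lowered *Adipoq* (ENSMUSG00000022878.5, chr16:23146536-23158028, plus strand). Replicates 3, 4, 5 and 6 held 1016, 749.8, 788 and 543 CPM in empty vector control cells and 483, 357, 271.5 and 249 CPM after stimulation. In sgRNA cells the values were 1019, 738, 763 and 641 CPM in control and 558.5, 446, 376 and 277 CPM in stimulated libraries. Every stimulated library lay below every control library of the same plasmid, which held for 2.14% of all genes tested in empty vector and 3.60% in sgRNA cells, but across plasmids the highest stimulated value (558.5 CPM) exceeded the lowest control value (543 CPM). Averaged over plasmids the log2 fold change was -1.06 (SE 0.18, 95% interval -1.43 to -0.69) at an adjusted p of 0.00222 (edgeR, quasi-likelihood, Benjamini-Hochberg). The call held in all 26 alternative fits, with adjusted p between 1.04e-08 and 0.0383.

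Isoproterenol also lowered *Retn* (ENSMUSG00000012705.16, chr8:3655770-3660110, plus strand), the gene of resistin, a cysteine-rich hormone that mouse adipocytes secrete. Replicates 3, 4, 5 and 6 held 68.7, 48.8, 69.3 and 73.2 CPM in empty vector control and 44.6, 34.6, 31.4 and 45.8 CPM in stimulated empty vector cells. The sgRNA libraries held 64.8, 52.2, 67.8 and 85.0 CPM in control and 46.6, 46.2, 49.4 and 57.6 CPM after stimulation. The groups were separate in empty vector cells and overlapped in sgRNA cells, where stimulated replicate 6 was above control replicate 4. The averaged log2 fold change was -0.58 (SE 0.12, 95% interval -0.83 to -0.34), with an adjusted p of 0.00790 by edgeR (Benjamini-Hochberg). Over 26 alternatives the adjusted p lay between 2.69e-05 and 0.0986, and the call was lost without replicate 3 (adjusted p = 0.0986) and without replicate 5 (adjusted p = 0.0747). The fits that left out libraries had no replicate block. With all libraries and the block the adjusted p was 2.69e-05 by edgeR.

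A gene was called when its adjusted p was under 0.05 and its absolute log2 fold change over 0.5. By this rule 2 of the 8 genes, *Adipoq* and *Retn*, were called for the averaged isoproterenol effect, beside 2.65% of all 13150 genes, and both were lower, beside 1.32% of all genes called lower. With the replicate number as a block 2 of 8 were called beside 5.70% of all genes. The median log2 fold change of the 8 genes was -0.25, against 0.00 over all genes tested, and all 8 estimates were negative. For none of the 8 did all 8 stimulated libraries lie below all 8 control libraries, which held for 0.760% of all genes.

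*Nampt* (ENSMUSG00000020572.8, chr12:32819545-32853349, plus strand) encodes visfatin, which is also the rate-limiting enzyme of NAD salvage from nicotinamide. In replicates 3, 4, 5 and 6 it measured 194, 179, 176 and 251.5 CPM in empty vector control cells and 169.9, 155, 128.5 and 189.7 CPM after stimulation. In sgRNA cells it measured 203, 206, 276 and 270.5 CPM in control and 167, 182, 206 and 209.6 CPM in stimulated libraries. Each stimulated library was below its control of the same number, but the ranges of the groups overlapped. The averaged effect was a log2 fold change of -0.32 ± 0.11 (SE), at an adjusted p of 0.109 by edgeR (Benjamini-Hochberg), and with the replicate block it was -0.31 with an adjusted p of 0.00824, inside the bound of 0.5.

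*Rarres2* (ENSMUSG00000009281.6, chr6:48569696-48572789, minus strand) encodes the precursor of chemerin, a chemoattractant and adipokine, and *Apln* (ENSMUSG00000037010.7, chrX:48025146-48034853, minus strand) that of the peptide apelin. *Rarres2* ranged from 17.01 to 55.9 CPM in the 8 control and from 9.29 to 50.1 CPM in the 8 stimulated libraries. *Apln* ranged from 13.8 to 42.4 CPM in control and from 10.4 to 36.8 CPM in stimulated libraries. For both genes the control and stimulated ranges overlapped, with both ends of the range lower after stimulation. The averaged log2 fold change was -0.33 (95% interval -0.97 to 0.31) for *Rarres2* and -0.19 (95% interval -0.76 to 0.38) for *Apln*, with adjusted p of 0.642 and 0.790 by edgeR (Benjamini-Hochberg). When libraries were left out, it ranged from -0.60 to -0.19 for *Rarres2* and from -0.30 to -0.06 for *Apln*.

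Of the adiponectin receptors, *Adipor2* (ENSMUSG00000030168.13, chr6:119353150-119417704, minus strand) was the more abundant, at 5.00 to 6.81 times the counts of *Adipor1* (ENSMUSG00000026457.14, chr1:134415378-134433351, plus strand) in every library, before correction for their similar exon lengths. *Adipor2* held 616, 561, 576.5 and 516 CPM in empty vector control and 511, 458, 539 and 433 CPM in stimulated empty vector libraries. In sgRNA cells it held 599, 529, 532 and 474 CPM in control and 513, 445, 529 and 451 CPM after stimulation. Stimulated libraries were again lower in each pair, by small amounts. The averaged log2 fold change of *Adipor2* was -0.18 (SE 0.08, 95% interval -0.34 to -0.02), with an adjusted p of 0.218 by edgeR (Benjamini-Hochberg) and of 0.00788 with the replicate block, inside the bound of 0.5. *Adipor1* ranged from 78.1 to 105 CPM in control and from 76.4 to 91.5 CPM in stimulated libraries, and its averaged log2 fold change was -0.07 (95% interval -0.22 to 0.07).

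*Lpar1* (ENSMUSG00000038668.14, chr4:58435255-58553898, minus strand), a G protein-coupled receptor of lysophosphatidic acid, was low, with 12 to 68 counts per library. It ranged from 1.19 to 6.02 CPM in control and from 1.19 to 4.88 CPM in stimulated libraries. Its averaged log2 fold change of -0.01 had a 95% interval of -0.86 to 0.83, or -0.39 to 0.45 with the replicate block, so smaller changes were not resolved in either fit.

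In the plot of the effects, the intervals of *Adipoq*, *Retn*, *Nampt* and *Adipor2* under isoproterenol lie wholly below 0 without and with the replicate block, and those of *Apln*, *Adipor1* and *Lpar1* include 0 in both. The interval of *Rarres2* includes 0 without the block and lies below 0 with it (-0.74 to -0.04). Counted over the 8 pairs of a control and a stimulated library with the same plasmid and number, *Adipoq*, *Retn*, *Nampt* and *Adipor2* were lower after stimulation in 8 of 8, beside 7.67% of all genes tested. *Apln* was lower in 7, *Rarres2* in 6 and *Adipor1* and *Lpar1* in 5 of 8 pairs. With the block and the adjusted p alone, without a bound on size, 4 of the 8 genes passed, beside 21.3% of all genes, a rule added after the data were seen.

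**Figure D2:**
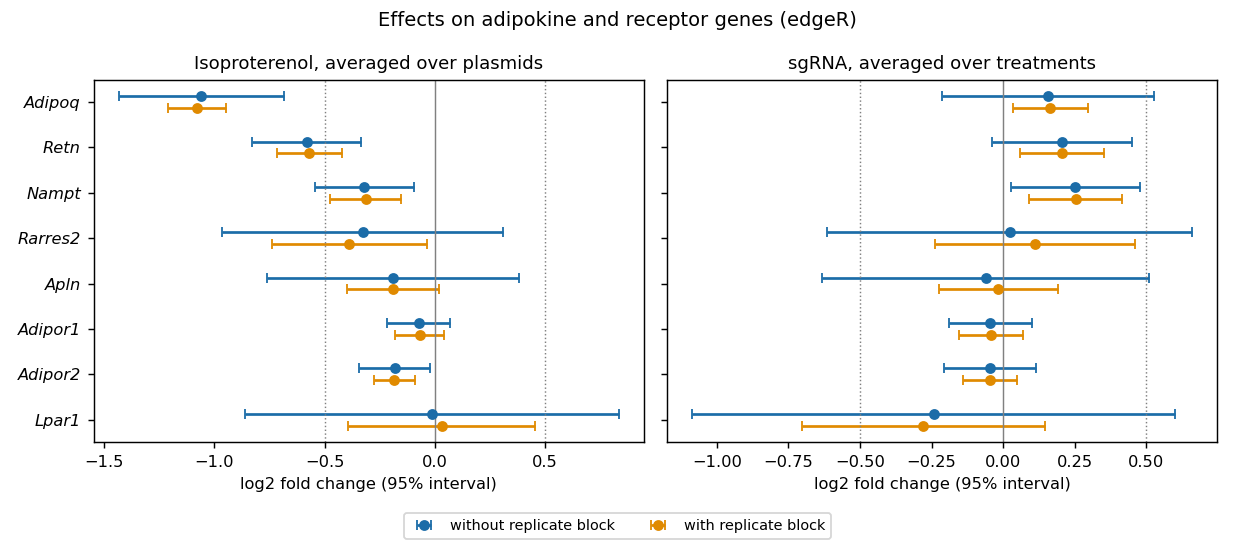
Log2 fold changes (points) with 95% intervals (bars) of the 8 tested genes for isoproterenol averaged over plasmids and for the sgRNA averaged over treatments, from edgeR without (blue) and with (orange) the replicate number as a block, with dotted lines at the bound of 0.5 either way. *Adipoq* at -1.06 and *Retn* at -0.58 are the estimates beyond the bound, and no sgRNA estimate reaches it.

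The response to isoproterenol was then examined within each plasmid. In empty vector cells the log2 fold change was -1.19 ± 0.25 (SE) for *Adipoq*, at an adjusted p of 0.0324, and -0.73 ± 0.16 for *Retn*, at one of 0.0477, by edgeR (Benjamini-Hochberg). These were 2 of 8 genes called, beside 0.829% of all genes, or 4.47% with the block. With the block both were called with adjusted p of 4.54e-07 for *Adipoq* and 1.97e-04 for *Retn* by edgeR. Without the block the *Adipoq* call was lost in 8 of 26 alternatives (highest adjusted p 0.299) and the *Retn* call in 18 of 26 (highest adjusted p 0.354). The *Adipoq* call was lost without empty vector control replicate 3, 4 or 5, without stimulated empty vector replicate 4, 5 or 6, and without all libraries of replicate 4 or 5. Among the fits that left out libraries, the *Retn* call held only without empty vector control replicate 4 or sgRNA control replicate 4 or 6.

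In sgRNA cells the log2 fold changes were -0.93 (SE 0.25, adjusted p = 0.132) for *Adipoq* and -0.43 (SE 0.16, adjusted p = 0.392) for *Retn* by edgeR (Benjamini-Hochberg). Thus 0 of 8 genes were called, beside 0.700% of all genes, although 3 of 8 had an unadjusted p under 0.05 (8.46% of all genes) and DESeq2 called 1 of 8 and 177 genes in all. With the replicate block *Adipoq* was called (log2 fold change -0.96, adjusted p = 4.59e-06), 1 of 8 beside 3.90% of all genes. The *Adipoq* adjusted p in sgRNA cells ranged from 4.59e-06 to 0.541 over the alternatives.

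A difference in response between the plasmids was tested as the interaction. It was 0.26 for *Adipoq* (95% interval -0.48 to 1.00) and 0.30 for *Retn* (95% interval -0.19 to 0.79), a smaller fall in sgRNA cells. When libraries were left out, it ranged from 0.08 to 0.47 for *Adipoq* and from 0.18 to 0.42 for *Retn*. In edgeR's test 0 of 8 genes were called, beside 0% of all genes without and 0% with the block, and 0 of 8 had an unadjusted p under 0.05 (0.395% of all genes). DESeq2 called 0 as well, and with the block 1 of 8, *Retn*, had an unadjusted p under 0.05 (1.51% of all genes). The blocked 95% intervals were -0.02 to 0.50 for *Adipoq* and 0.01 to 0.60 for *Retn*.

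The ribosomal RNA share was also higher in the stimulated library in 4 of 4 pairs of empty vector cells and in 2 of 4 pairs of sgRNA cells. With the block and this share as a covariate the averaged isoproterenol estimates were -1.06 for *Adipoq* and -0.55 for *Retn*, and both stayed called. In the same fit those of *Nampt*, *Rarres2* and *Apln* were -0.24, -0.20 and -0.08, against -0.31, -0.39 and -0.19 with the block alone. The part of this share in the isoproterenol results was not tested.

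The second question was whether the sgRNA against *Gm15551* altered the adipokine genes. The averaged sgRNA effect on *Gm15551* itself (log2 fold change 2.37) was not called without the replicate block (adjusted p = 0.0989 by edgeR) and was called with it (2.41, adjusted p = 5.50e-04). Averaged over treatments, 0 of the 8 genes were called, beside 0% of all genes in edgeR's test, and 1 of 8, *Nampt*, had an unadjusted p under 0.05 (3.32% of all genes). DESeq2 called 0 of 8. With the replicate block 0 of 8 were called, beside 0.266% of all genes, and 3 of 8 had an unadjusted p under 0.05, as did 11.45% of all genes. The adjusted p with the block were 0.196 for *Nampt*, 0.256 for *Retn* and 0.318 for *Adipoq*, by edgeR (Benjamini-Hochberg).

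Among the genes with a higher estimate in sgRNA cells, *Nampt* had a log2 fold change of 0.25 (SE 0.11, 95% interval 0.03 to 0.48), and 7 of 8 pairs were higher with the sgRNA. Without the libraries of replicate 5 its log2 fold change was 0.13. *Retn* had one of 0.20 (95% interval -0.04 to 0.45) and *Adipoq* one of 0.16 (95% interval -0.21 to 0.53), each higher in 6 of 8 pairs, 4 of 4 in stimulated and 2 of 4 in control cells. The *Adipoq* estimate ranged from 0.07 to 0.27 when libraries were left out. No gene of the set was higher in 8 of 8, which held for 1.01% of all genes. *Adipor1* and *Adipor2* had narrow intervals, of -0.19 to 0.10 and -0.21 to 0.12, whereas those of *Rarres2* (-0.61 to 0.66), *Apln* (-0.63 to 0.51) and *Lpar1* (-1.09 to 0.60) were wide. The *Lpar1* estimate was -0.24, or -0.28 with the block, and so of a size like that of *Nampt*. Within control cells and within stimulated cells 0 of 8 genes were called by edgeR, beside 0% of all genes in either, or 0.0304% and 0.122% with the block. The unadjusted p was under 0.05 for 0 and 1 of 8 (beside 1.48% and 1.49% of all genes), or 1 and 3 of 8 with the block (beside 5.73% and 7.29%), and DESeq2 called 0 of 8 in both. The ribosomal RNA share, which was lower in sgRNA libraries in 8 of 8 pairs, moved with this factor. With the block and this share as a covariate the *Nampt* estimate was 0.06, and the part of this share in the result was not tested.

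The 8 genes differed in what their levels followed. In a decomposition of the variance of log2 CPM over the 16 libraries, isoproterenol accounted for 70.7% in *Adipoq*, 56.5% in *Retn*, 38.1% in *Adipor2* and 31.8% in *Nampt*, against a median of 6.79% over all genes tested. Replicate number accounted for 86.2% in *Apln*, 77.7% in *Lpar1* and 64.0% in *Rarres2*, against a median of 46.8%. The sgRNA share was highest in *Nampt*, at 21.2%, beside a median of 2.38%. These shares are descriptions without a test.

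**Figure D3:**
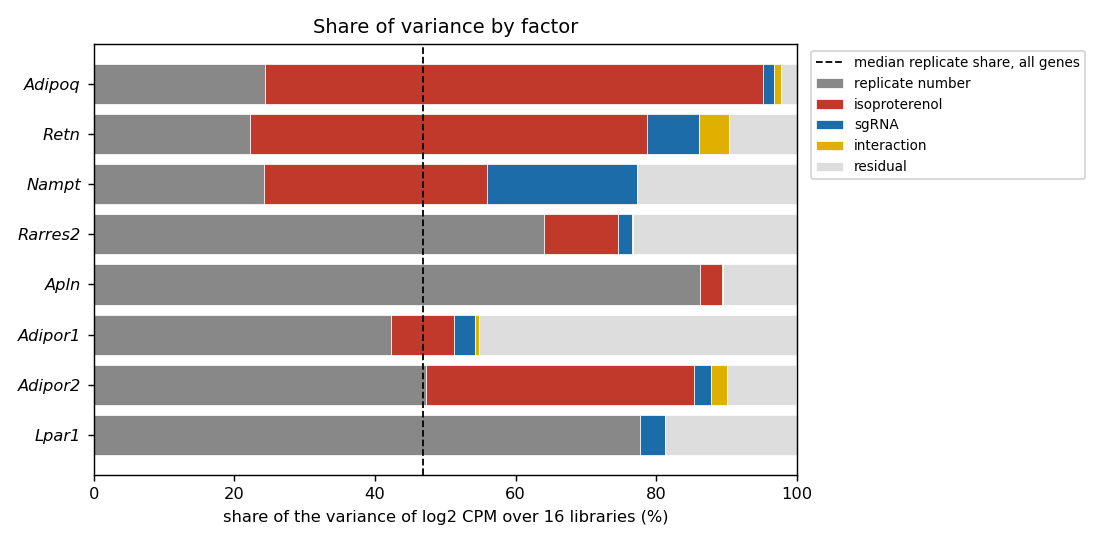
Share (%) of the variance of log2 CPM over the 16 libraries that went with replicate number, isoproterenol, the sgRNA, their interaction and the residual, for the 8 tested genes, with a dashed line at the median replicate share of all genes tested (46.8%). Isoproterenol holds the largest share in *Adipoq*, *Retn* and *Nampt*, and replicate number in *Apln*, *Lpar1*, *Rarres2* and *Adipor2*.

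The replicate numbers stood apart in a gene-specific way, beside a median replicate share of the variance of 46.8% over all genes tested. *Lpar1* averaged 5.10 ± 0.617 CPM (SD, n = 4) in the 4 libraries of replicate 6, against 1.88, 1.61 and 2.15 CPM in replicates 3, 4 and 5, and the lowest replicate 6 library (4.71 CPM) was above the highest of the others (2.67 CPM). *Rarres2* averaged 44.1 and 43.8 CPM in replicates 3 and 4 but 19.8 and 26.1 CPM in replicates 5 and 6. *Apln* showed the same order, with 37.2 and 35.4 CPM against 15.1 and 23.4 CPM. *Adipoq* averaged 769 CPM in replicate 3 and 427.5 CPM in replicate 6, so that its control level in replicate 6 was close to its stimulated level in replicate 3. The labels do not say what a replicate number stands for.

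Across the 16 libraries, which share treatments and replicate numbers, the log2 levels of *Adipoq* and *Retn* had a Pearson r of 0.63, or 0.95 after the mean of each replicate number was taken out. *Rarres2* and *Apln* had an r of 0.90, or 0.73 within replicate numbers. Among 12109 genes with a mean of at least 1 CPM, those with the profile most like *Adipoq* were *Chn1* (r = 0.96), *Mmd* (r = 0.96) and *Plaat3* (r = 0.95), the last a phospholipase of adipose tissue. Those most like *Retn* were *Pts* (r = 0.90), *Apoc3* (r = 0.88) and *Slc13a4* (r = 0.87). These correlations describe the libraries at hand.

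Adipocyte markers were measured in the same libraries, since in bulk RNA fewer adipocytes and less RNA per adipocyte cannot be told apart. Of 8 markers, 2 fell under isoproterenol, *Lipe* (hormone-sensitive lipase, log2 fold change -0.69, adjusted p = 0.0140) and *Cidec* (a lipid droplet protein, -0.54, adjusted p = 0.0299) by edgeR (Benjamini-Hochberg). With the replicate block *Plin1* and *Cebpa* were called too, 4 of 8, and the count lay between 0 and 4 when libraries were left out. The shares over all genes tested were 2.65% without and 5.70% with the block. The *Lipe* call was lost without replicate 3 or 4, and the *Cidec* call held in 15 of 26 alternatives, with a highest adjusted p of 0.276. All 8 estimates were negative, with a median of -0.45, and that of *Pparg*, the master regulator of adipogenesis, was -0.06. For the sgRNA effect 0 of the 8 were called by edgeR, with or without the block (0 at an unadjusted p under 0.05 without it, 0 by DESeq2). The summed level of the 8 markers averaged 22868 CPM in empty vector control and 17746 CPM in stimulated empty vector cells, and 22944 and 19556 CPM in the sgRNA groups.

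Ratios to each of the 8 markers were then taken within each library. The log2 ratio of *Adipoq* to *Pparg* was lower after stimulation by 1.02 ± 0.265 (SD, 8 pairs), and that to *Lpl*, the gene of lipoprotein lipase, by 1.05 ± 0.285, each in 8 of 8 pairs. Relative to *Fabp4* it was lower by 0.711 ± 0.101 in 8 of 8 and relative to *Plin1* by 0.508 ± 0.399 in 7 of 8 pairs. The mean log2 change was nearest to 0 relative to *Cebpa* (-0.36 ± 0.45, lower in 7 of 8 pairs) and to the called marker *Lipe* (-0.40 ± 0.39, 6 of 8 pairs). Relative to *Cidec* it was -0.54 ± 0.23 and to the glucose transporter gene *Slc2a4* -0.70 ± 0.41, in 8 of 8 pairs each. For *Retn* the mean log2 change was -0.52 relative to *Pparg* and -0.55 relative to *Lpl*, in 8 of 8 pairs each. Relative to the other 6 markers it lay between -0.21 (*Fabp4*) and 0.14 (*Cebpa*), and the ratio of *Retn* was higher after stimulation in 6 of 8 pairs relative to *Cebpa* and *Plin1* and in 5 of 8 relative to *Lipe* and *Cidec*. The ratio of *Adipoq* to *Retn* was itself lower by 0.504 ± 0.0947 in 8 of 8 pairs.

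Markers of other cell types were measured as well. Of all genes tested, 2.65% were called under isoproterenol without and 5.70% with the block, and 0.266% for the sgRNA with the block. Of the preadipocyte list 3 of 6 genes were tested and 0 called by edgeR (0 at an unadjusted p under 0.05 and 0 by DESeq2), its summed level ranging from 13.0 to 72.6 CPM in empty vector control and from 19.5 to 94.3 CPM in stimulated empty vector libraries. With the block *Ly6a* was called higher under isoproterenol (log2 fold change 1.09, adjusted p = 4.92e-06 by edgeR) and lower with the sgRNA (-0.74, adjusted p = 0.00491). Of 4 endothelial and 5 mesothelial genes 1 and 3 were tested and 0 called by edgeR (0 and 2 at an unadjusted p under 0.05, 0 and 1 by DESeq2), and their sums stayed at or under 5.45 CPM. With the block *Krt19* of the mesothelial list was called higher (log2 fold change 1.55, adjusted p = 0.00371 by edgeR). Of 6 macrophage markers *Cd68* and *Cd14* were tested and rose (log2 fold changes 0.91 and 0.82, adjusted p = 0.00518 and 0.00384 by edgeR), from a sum of 8.91 to 17.5 CPM in control to 17.2 to 27.6 CPM in stimulated libraries. The defining markers *Adgre1*, *Csf1r*, *Lyz2* and *Ptprc* had at most 5 counts in any library. The *Cd68* call was lost without replicate 3 or 6 and the *Cd14* call without replicate 3. Of 7 brown adipocyte genes 6 were tested and 2 rose, *Ucp1* (log2 fold change 4.03) and the coactivator gene *Ppargc1a* (0.71, adjusted p = 0.0128 by edgeR, lost without replicate 3 or 4), while *Dio2* had 1 count in all. With the block 3 of the 6 were called, as *Cidea*, a lipid droplet gene of brown fat, was added (2.30-fold higher, adjusted p = 7.46e-04 by edgeR), and *Cidea* was also called higher with the sgRNA (log2 fold change 1.05, adjusted p = 0.0348). The part of these genes in the adipokine results was not tested.

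Genes around the 8 were taken from lists. Of 6 genes for the folding and secretion of adiponectin, 5 were tested and 0 called under isoproterenol (1, *Erp44*, at an unadjusted p under 0.05, and 0 by DESeq2). The oxidoreductase gene *Ero1a* measured 467 ± 189 CPM without and 459 ± 168 CPM with isoproterenol in empty vector cells (SD, n = 4). Of 10 receptors and binding partners 4 were tested and 0 called (0 at an unadjusted p under 0.05 and 0 by DESeq2). The log2 fold changes were 0.12 for *Cap1*, reported as a receptor of human resistin, 0.22 for the adaptor *Appl1*, -0.05 for *Appl2* and 0.10 for *Paqr3*. In the lysophosphatidic acid list 7 of 9 were tested and 0 called (3 at an unadjusted p under 0.05 and 0 by DESeq2). Its enzyme gene *Enpp2* (autotaxin) averaged 174 CPM in both empty vector groups. In sgRNA cells it averaged 179.6 CPM in control and 209.3 CPM in stimulated libraries, and its averaged log2 fold change was 0.11. Of the other receptors *Lpar6* averaged 12.4, *Lpar4* 8.44 and *Lpar2* 5.92 CPM in empty vector control cells.

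In the NAD salvage list, where *Nampt* makes the substrate of the next enzyme, 8 of 8 genes were tested, 2 rose and 0 fell under isoproterenol. Beside them 2.65% of all genes tested were called. *Nmnat2*, which turns nicotinamide mononucleotide into NAD, rose in empty vector cells from 0.691 ± 0.211 to 2.03 ± 0.666 CPM (SD, n = 4), with an averaged log2 fold change of 1.38 (adjusted p = 0.00472, edgeR). Its more abundant relative *Nmnat1* averaged 32.1 and 30.1 CPM in the same groups and *Nmnat3* 2.50 and 3.57 CPM. Their averaged log2 fold changes were -0.01 and 0.48, and neither was called. *Nnmt*, which methylates nicotinamide and so removes it from salvage, rose from 46.3 ± 15.8 to 74.6 ± 25.0 CPM in empty vector cells, with an averaged log2 fold change of 0.84 (adjusted p = 0.0385, edgeR). The *Nmnat2* call was lost without replicate 3 or 4, and the *Nnmt* call held in 12 of 26 alternatives, with a highest adjusted p of 0.204.

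Other adipokine genes moved in both directions under isoproterenol. Of 27 listed, 19 were tested, 2 rose and 2 fell, with a median log2 fold change of 0.04, and with the block 4 were called higher and 3 lower. Of all genes tested, 2.65% were called without and 5.70% with the block. The block added *Ccn5* (log2 fold change 1.31, adjusted p = 3.34e-04) and *Fstl1* (0.71, adjusted p = 6.44e-07), which rose, and *Apoe* (-0.64, adjusted p = 0.0299), which fell, by edgeR. Among those that fell, *Cfd* (adipsin, a complement protease of adipocytes) went in empty vector cells from 109.6 ± 50.2 to 35.6 ± 14.0 CPM (SD, n = 4), with an averaged log2 fold change of -1.48 (adjusted p = 0.00763, edgeR). The growth factor gene *Igf1* went from 56.1 ± 13.3 to 21.8 ± 8.22 CPM in the same cells, with an averaged log2 fold change of -1.37 (adjusted p = 5.48e-04, edgeR). The falls of both genes were larger than that of *Adipoq*, a difference that was not tested, and the *Cfd* call was lost without replicate 3.

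Those that rose were the cytokine gene *Il6* and *Metrnl*, which encodes a secreted protein of activated fat. *Il6* rose in empty vector cells from 1.40 ± 0.598 to 6.98 ± 2.32 CPM (SD, n = 4) and in sgRNA cells from 0.908 ± 0.506 to 2.70 ± 1.10 CPM, with an averaged log2 fold change of 1.92 (adjusted p = 0.00145, edgeR). *Metrnl* rose from 3.94 ± 1.17 to 8.21 ± 0.871 CPM in empty vector cells, with an averaged log2 fold change of 0.89 (adjusted p = 0.00186, edgeR). *Il6*, *Metrnl* and *Igf1* were called in all 26 alternatives. For the sgRNA effect 0 of these 19 genes were called by edgeR (4 at an unadjusted p under 0.05) and 1 by DESeq2. With the block *Lcn2* (log2 fold change -0.83, adjusted p = 0.00100) and *Il6* (-1.01, adjusted p = 0.0371) were lower in sgRNA cells by edgeR, beside 0.266% of all genes called. The paper reports that other sgRNAs changed *Lcn2* in this cell model too, and interprets it as an artefact of the model. The control carried no guide, and the part of the ribosomal RNA share in these falls was not tested.

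**Figure D4:**
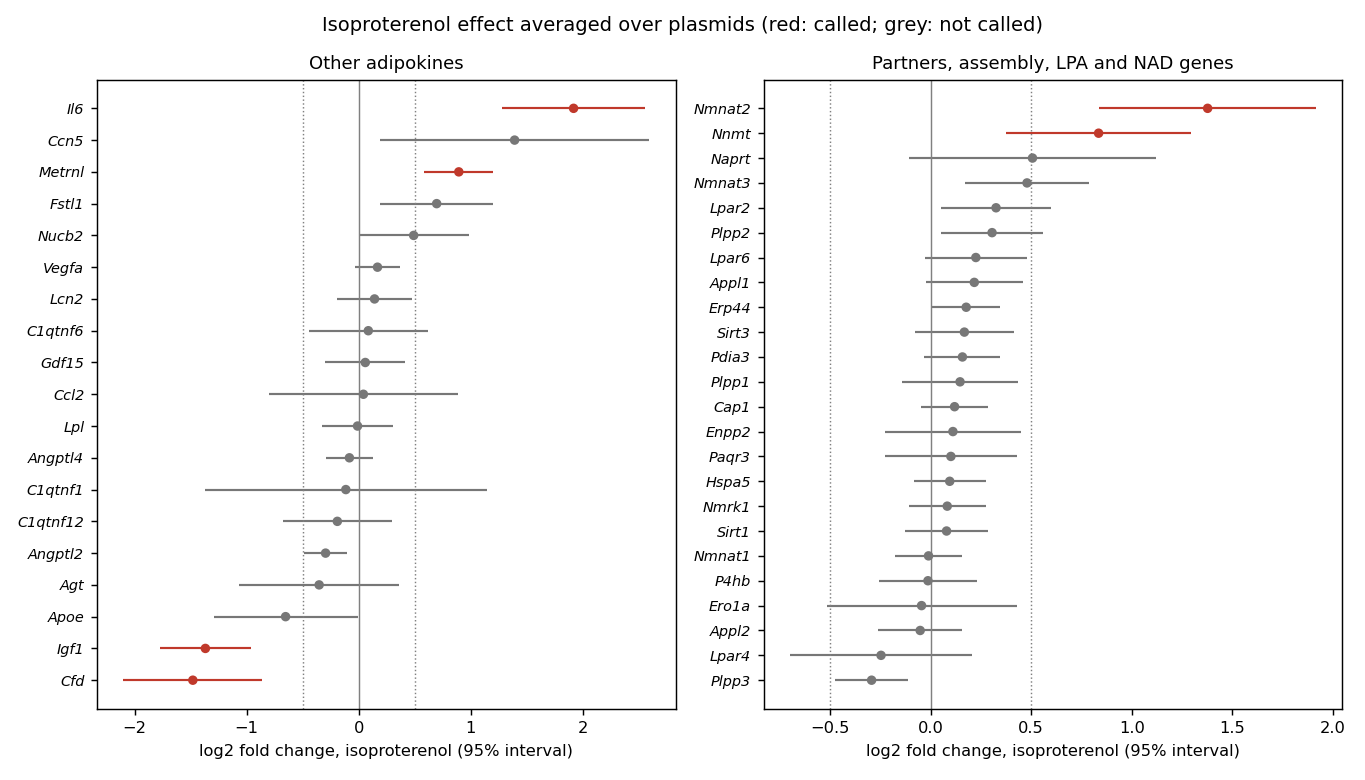
Log2 fold changes (points) with 95% intervals (lines) for isoproterenol averaged over plasmids in the other adipokine genes and in the genes of adiponectin assembly, receptors and partners, lysophosphatidic acid and NAD salvage, without the replicate block, with called genes in red and dotted lines at the bound of 0.5 either way. *Il6* (1.92) and *Metrnl* are called higher and *Cfd* (-1.48) and *Igf1* lower in the first panel, and *Nmnat2* and *Nnmt* higher in the second.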

How the data were processed

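RNA of 16 libraries in 4 groups was analysed. Per the labels and methods, the authors filtered reads with cutadapt, quantified them with Salmon against the GENCODE M22 transcriptome of GRCm38, or M22 combined with RNAcentral 5 (not said which for this table), and deposited estimated counts per gene as whole numbers, not normalized. Tool versions and strand use are not given in the sources used here, so antisense, overlapping and paralogous genes are uncertain. Total counts of 9053521 to 16546187 set the precision of low genes.

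Genes were kept by filterByExpr (minimum count 10, minimum total 15), scaled by TMM and fitted with 4 group means by edgeR 4.0.16 in R 4.3.3 (two-sided glmQLFTest), and p-values of 13150 genes were adjusted by Benjamini-Hochberg. CPM values are TMM-scaled and log2 CPM used a prior count of 2. Levels per kb used merged exons of GENCODE M21, the source of gene coordinates. Symbols were taken from the table.

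Replicate numbers come from the sample titles. Deviations from group means correlated within every number (0.22 to 0.61), so the numbers were taken to pair the libraries. The median between numbers was -0.21, but taking out group means forces it down when libraries of 1 number correlate, so it is no separate evidence. The median biological coefficient of variation was 18.0% without and 9.96% with a replicate block. The 24 pairs of libraries within groups all differed beyond sampling noise. Alternatives were RLE scaling, DESeq2 1.42.0, no filter, the block, removal of the ribosomal RNA gene, the block with the ribosomal RNA share, the adjusted p alone, and leaving out each library or number. The fits that left out libraries or numbers had no replicate block, so the calls lost in them are calls of the unblocked model. Leaving out libraries with the block in place was not run. Genes named are the members, the list genes that were called without or with the block, receptors of the ligands, and, chosen after their values were seen, a few uncalled list genes as examples. 1 listed gene is not reported here. Members and lists were chosen with earlier results of these data known.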

Additional observations from a re-analysis of the deposited data

How the results depend on the processing

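Of the 8 genes tested, the number called for the averaged isoproterenol effect was 2 in each fit of all libraries with the bound on size, 1 to 2 when libraries were left out, and 4 with the replicate block and the adjusted p alone, an alternative chosen after seeing the data. In empty vector cells 2 genes were called, 1 without the ribosomal RNA gene and 0 to 2 when libraries were left out. In sgRNA cells 0 were called, and 1, *Adipoq*, with DESeq2, without the filter on low counts, with the replicate block and with the block and the ribosomal RNA share. The block changed no other call of the 10 genes. The counts for the sgRNA effects and the interaction were 0 in every alternative run.

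The estimates whose direction reversed were not called. With the replicate block the *Lpar1* isoproterenol estimate was 0.03, and it ranged from -0.29 to 0.28 when libraries were left out. With the block and the ribosomal RNA share, the averaged sgRNA estimate of *Rarres2* was -0.37 and that of *Retn* in control cells -0.0016. In the same fit the averaged sgRNA estimate of *Apln* kept its direction and was -0.30, against -0.02 with the block alone. When libraries were left out, the averaged sgRNA estimates ranged from -0.13 to 0.23 for *Rarres2*, from -0.19 to 0.0504 for *Apln* and from -0.52 to 0.0494 for *Lpar1*, and those in control cells from -0.11 to 0.19 for *Adipoq* and from -0.0607 to 0.17 for *Retn*. The cause was not tested. The depth limits *Lep* and *Itln1*, and the smallest group left by an omission had 3 libraries.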
